A study of Caenorhabditis elegans with 4 samples.

Results

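These are regions called for ELT-1::GFP by chromatin immunoprecipitation (ChIP-seq) in Caenorhabditis elegans L3 larvae. Both ChIP samples listed them at nearly the same place, but the authors' combined list does not hold them. Whether ELT-1 binds there was not tested. They were chosen by position, and so by measured values: a nuclear region of ChIP replicate 1 was taken when its midpoint lay within 200 bp of a replicate 2 midpoint and when it shared no base with any combined region. This gave 5140 regions, called members here, or 18.2% of the 28213 nuclear regions of replicate 1. They are set against the 2548 regions of the combined list, and against 20180 unmatched regions of replicate 1, which had no replicate 2 midpoint within 200 bp and also lay outside the combined list.

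The ChIP samples and their inputs, 2 of each, came from hermaphrodites of strain OP354, which has the allele unc119(ed3) and the transgene wgIs354, carrying elt-1::TY1 EGFP FLAG together with unc119. They were L3 larvae raised at 20 °C and fixed with 2% formaldehyde. The ChIP used an antibody to GFP. All 4 samples thus carry the tagged transgene, which was built by recombineering and brought in by bombardment, and no untagged strain was analysed here. The labels name worms and no isolated tissue, so no region is given a cell type. The labels give replicate numbers but not whether the replicates were separate cultures.

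ELT-1 is a zinc finger transcription factor of the GATA family, named after the core of the DNA site these proteins bind, and it is known for specifying epidermal cells in the embryo and maintaining them in the larva. In ChIP-seq, fragments bound by the tagged protein pile up into regions. Calling in each replicate is usually permissive, and a comparison of ranks between replicates, the irreproducible discovery rate (IDR), then sets which regions are kept, so a list of kept regions leaves out both background and weaker bound places. The deposited files name SPP, a caller of ChIP-seq regions, and IDR as the source of every list, and no field says how the combined list was cut. Coordinates are in WormBase WS220. Sequence and gene annotation of that build were not used here, so no region is given a motif or a gene. Read depth is unknown, since the files list regions and no reads.

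Members made up most of what the replicates shared, and few of them ranked well in both. Of the 28213 nuclear regions of replicate 1, 7772 (27.5%) had a replicate 2 midpoint within 200 bp. Of these, 2632 shared a base with a combined region and 5140 were members. Among the 25320 replicate 1 regions outside the combined list, the members are 20.3%. These shares follow from the rule and are a description only.

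Regions were ranked within each replicate by the authors' score, with ties ordered by the number in the region name, and rank 1 is best. The score ended at a highest value, 3.70 in replicate 1 and 3.74 in replicate 2, which 2486 and 2706 nuclear regions shared. Ranks up to 2486 in replicate 1 and 2706 in replicate 2 thus order ties by the number in the name alone. The meaning of that number is not stated. Members had a median score of 0.652 in replicate 1, against 3.70 in shared regions of the combined list and 0.301 in unmatched regions. In replicate 2 the partners of members, meaning the nearest replicate 2 regions, had a median score of 0.918, against 3.74 for partners of regions in the combined list. Members thus lay between the other lists in replicate 1. Lists named after IDR are usually made by comparing ranks between replicates, so score and rank are treated here as part of the choice of members and are given without a test.

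The ranks of members spread over nearly the whole of each list. In replicate 1 they ran from 1065 to 28212 with a median of 11298.5, against a median of 1393 for shared regions of the combined list and 16331.5 for unmatched regions. In replicate 2 the partners ran from 154 to 26268 with a median of 11144.5. Only 8 members were within the best 2548 of both replicates, although 155 were so in replicate 1 and 377 had such a partner in replicate 2. The 155 had partners with a median rank of 11444 in replicate 2, and the 377 had a median rank of 8572 in replicate 1. A good rank in one replicate mostly stood beside a middling one in the other. Pairs with good ranks in both were mostly in the combined list, so the rule itself favours this. Across all members the ranks correlated weakly (Spearman's rho 0.172 over 5140 members of the same 2 samples, given without a test), against 0.432 over the 2632 shared regions in the combined list. The 2 values are not alike. In the combined list both quartiles of the replicate 1 score were 3.70, the highest value, so most ranks there order ties by the number in the name. Of the members, 89.2% had the highest score in neither replicate.

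**Figure D1:**
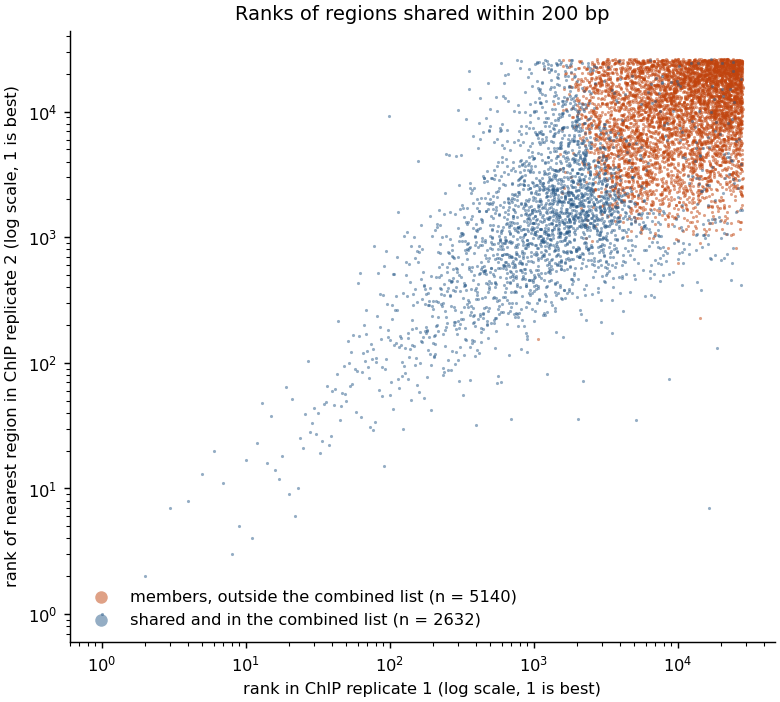
Rank in ChIP replicate 1 (x axis, log scale) against the rank of the nearest replicate 2 region (y axis, log scale) for regions with midpoints within 200 bp, 1 point per replicate 1 region. The 5140 members fill the corner of poor ranks, from rank 1065 on in replicate 1. The 2632 regions in the combined list start at rank 1 and scatter widely about the diagonal (Spearman's rho 0.432), with partner ranks up to 26237. Ranks up to 2486 in replicate 1 and 2706 in replicate 2 are ties at the highest score, ordered by the number in the region name.

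The border between members and the combined list was gradual in rank. Taking for each shared region the worse of its 2 ranks, 0 of 622 with a worse rank up to 1000 were members and all were in the combined list. Pairs with a worse rank up to 2486 had the highest score in both replicates, so the number in the name alone orders them. Members were 2.78% of the 252 shared regions at 2001 to 2500, 20.1% of 199 at 3001 to 3500, 53.7% of 296 at 4001 to 5000 and 84.3% of 561 at 7501 to 10000. Beyond 20000, 1799 of 1891 (95.1%) were members. The other 92 shared a base with a combined region in spite of that rank. Whether the combined region came from the same pair or from a better-ranked one was not tested. The make-up of the replicate 1 list shows the same turnover. In the best 2548 regions members were 6.08%, and in the next 2548 they reached 35.3%, their highest share, beside 16.2% in the combined list and 48.5% unmatched. Their share then fell in each later set of 2548, to 12.8% at ranks 25481 to 28028.

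**Figure D2:**
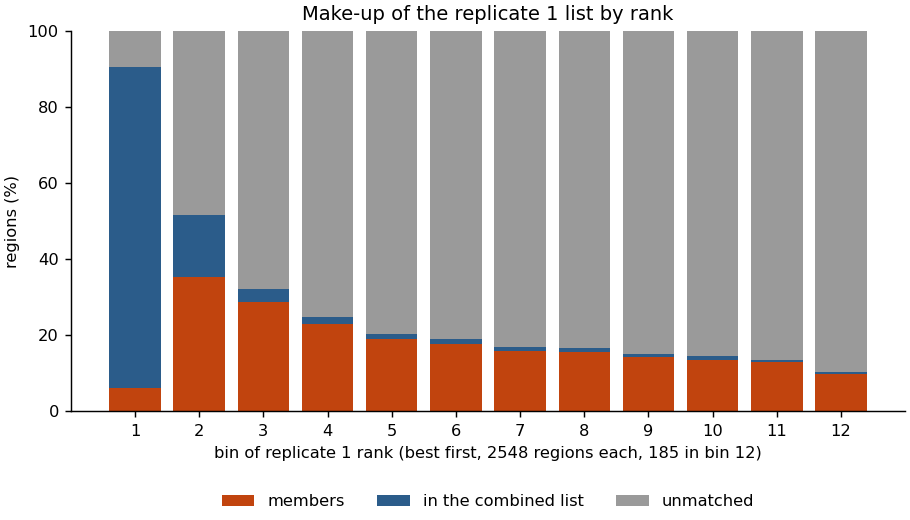
Share of replicate 1 nuclear regions (y axis, %) that were members, in the combined list or unmatched, in successive bins of replicate 1 rank (x axis). Members are 6.08% of bin 1, 35.3% of bin 2 and 9.73% of the 185 regions in bin 12.

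Members resembled the unmatched regions in width. Of the 5140, 5139 had 376 bp, as did all 20180 unmatched regions, against 92.6% of the shared regions in the combined list. One member was narrower, at 192 bp, and 3 members had a narrower partner. Since nearly all have 1 width, width says nothing about how far the signal of a member extended.

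The 12 members with the best worse rank are described singly here. Since no field says how the combined list was cut, how close they came to entering it is unknown. The first stood apart from the others in rank but not in score. All of the 12 had the highest scores, 3.70 and 3.74, except those ranked 2558, 2597 and 2599 in replicate 1. These scored 3.23 to 3.24 there. Among the tied members the ranks follow the number in the name alone. The first lay on chromosome II at 4911846 to 4912221, with rank 1065 in replicate 1, and its partner at 4912120 to 4912332 had rank 154 in replicate 2. The midpoints were 193 bp apart, close to the limit of 200 bp. A second replicate 2 region overlapped this partner, at 4912317 to 4912524, and the combined list held a region at 4912698 to 4912964, 798 bp from the midpoint of the member.

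The next members of this set ranked between 941 and 2639 in both replicates. On chromosome III, the region at 4099844 to 4100219 had ranks 2137 and 1725 in replicates 1 and 2. Another, at 887834 to 888209, had ranks 2302 and 1246, and its nearest combined midpoint was 42337 bp away. The last in the set from this chromosome were at 6419439 to 6419814 (ranks 2359 and 1378) and 13464321 to 13464696 (ranks 2597 and 1729). Chromosome III, with 4, and II, with 5, thus held 9 of the 12. Of all members, 15.5% were on III and 16.3% on II, and the make-up of the 12 was not tested.

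On II the others were at 7337690 to 7338065 (ranks 1571 and 2272), 9061307 to 9061682 (2304 and 979), 10549749 to 10550124 (1633 and 2451) and 6174825 to 6175200 (2558 and 941). The last of these lay 1715 bp from a combined midpoint, whereas the one at 7337690 was 52603 bp from any combined midpoint. Isolated places and places beside a combined region were therefore both present at the top.

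The set held 1 region each from IV, X and I. On IV it was 10403174 to 10403549 (ranks 1719 and 2313), on X 7306463 to 7306838 (2599 and 2331) and on I 9766884 to 9767259 (2029 and 2639). Chromosome V had none among the 12. Its best member was at 12413554 to 12413929, with ranks 2673 and 2379 and place 16 among all members. The offsets between replicate midpoints in the 12 ran from 75 to 193 bp, against a median of 79 bp over all members.

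The limit of 200 bp had no gap around it. At exactly 200 bp there were 13 members, of which the best, on III at 8802265 to 8802640 (ranks 4261 and 1991), was also the only member whose partner shared a base with a combined region. At an offset of 201 bp there were 20 unmatched regions, the best being on I at 5866078 to 5866453 (ranks 3171 and 3630). On the side of the combined list the closest member lay 44 bp from the edge of a combined region, on III at 1634251 to 1634626 (ranks 4905 and 23945), and 6 members had a gap under 100 bp. The smallest overlap that kept a shared region out of the members was 24 bp.

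Replicate midpoints of members were spread widely within the limit. The absolute offset had a median of 79 bp (quartiles 36 and 131), against 38 bp (15 and 75) in shared regions of the combined list. Of the members, 1715 (33.4%) had offsets under 50 bp and 897 (17.5%) had 150 to 200 bp. The signed offset had a median of -1 bp, so neither replicate was shifted to one side. The same partner served 2 members in 244 cases, and 4893 members (95.2%) were in pairs where each region was the nearest of the other.

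Distances beyond the limit show how often a replicate 2 midpoint lay near a replicate 1 region at any rate. For the 25320 regions outside the combined list, there were 671 pairs per 50 bp at distances up to 200 bp, and 427 pairs per 50 bp at 1 to 2 kb, a ratio of 1.57. The 5382 pairs within 200 bp compare with 3421 that the same span would hold at the rate of 1 to 2 kb. For the 2893 regions in the combined list the ratio was 4.94. With only replicate 2 regions outside the combined list counted, the ratio outside the list was 1.86. Most of the close pairs that make a region a member were thus matched in number by the level at distances that the rule does not take. The values do not tell which single members belong to the excess.

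The excess of close pairs lay with the better ranks of replicate 1. In the best 6330 of the regions outside the combined list there were 2238 pairs within 200 bp, against 1033 for the same span at the rate of 1 to 2 kb, a ratio of 2.17. In the following groups of 6330 the ratios were 1.51, 1.29 and 1.14. In the last of them 869 pairs stood beside 765. Close pairs at the poorest ranks were thus only a little above the level of distant pairs. The distant pairs in these groups include replicate 2 regions of the combined list.

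**Figure D3:**
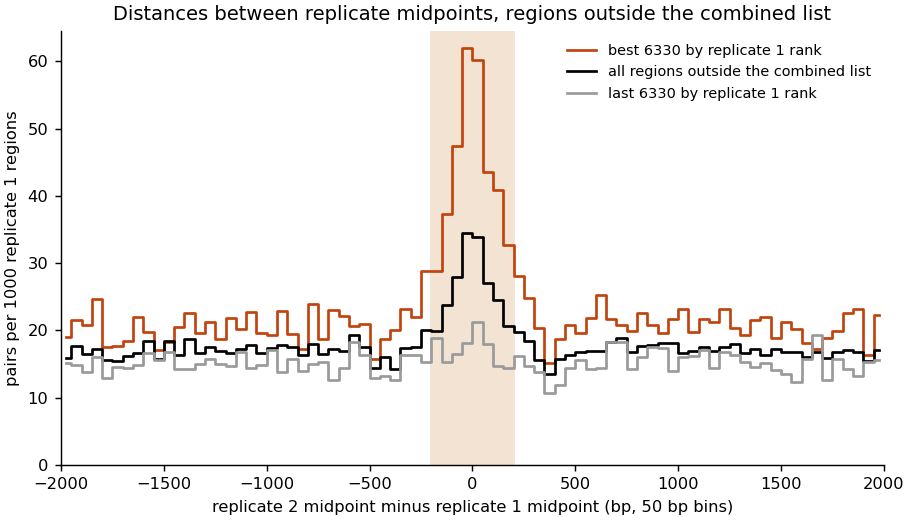
Pairs of replicate 1 and replicate 2 midpoints per 1000 replicate 1 regions (y axis) by signed distance in 50 bp bins (x axis), for replicate 1 regions outside the combined list and for the best and the last 6330 of them by replicate 1 rank. The band marks the 200 bp limit, and just below 0 bp there are 61.9 pairs per 1000 regions in the best 6330, 34.4 over all and 18.2 in the last 6330.

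Chromosome was not part of the rule, and members were denser on X than on autosomes. X held 1016 members, or 57.3 per Mb, and the autosomes 4124, or 50.0 per Mb, a ratio of 1.15 (exact 95% interval 1.07 to 1.23). The ratio was 1.42 (1.29 to 1.55) in the combined list and 1.03 (0.993 to 1.07) in unmatched regions. The odds of lying on X were 0.810 times as high for members as for combined regions (0.722 to 0.911), and 1.12 times as high as for unmatched regions (1.03 to 1.21). Members therefore lay between the other lists, with both intervals clear of 1. All intervals here cover the counting of regions, which are not independent samples, and none describes a spread between worm cultures.

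On the autosomes, members numbered 57.7 per Mb on III, 55.7 on I, 54.9 on II, 44.7 on IV and 41.6 on V. With intervals of 95% jointly over the 6 chromosomes, X was the one chromosome whose share differed from the combined list (odds ratio 0.810, 0.694 to 0.948). Against unmatched regions the share was lower on IV (0.889, 0.792 to 0.996) and higher on X (1.12, 1.003 to 1.24). For V the interval held 1 (0.906, 0.811 to 1.01), as it did for I, II and III. Replicate 2 regions of any kind, which supply the partners, numbered 275 per Mb on X and 260 per Mb on autosomes. Outside the combined list the ratio of close to distant pairs was 1.62 on X and 1.56 on autosomes. Distant pairs here include replicate 2 regions of the combined list, which close pairs by the rule almost never do. Combined regions numbered 33.5 per Mb on X and 23.7 on autosomes, so the 2 ratios are not strictly comparable. Ratios without those regions were not computed by chromosome.

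Along the autosomes the members were denser in the centres, defined as the chromosome without its outer 20% at either end. There were 55.6 members per Mb in autosome centres and 41.5 in arms, a ratio of 1.34 (1.26 to 1.43). The ratio was 2.03 (1.83 to 2.26) for combined and 1.12 (1.09 to 1.16) for unmatched regions. The odds of the centre were 0.661 times as high for members as for combined regions (0.584 to 0.747) and 1.19 times as high as for unmatched regions (1.11 to 1.28). Outside the combined list the ratio of close to distant pairs was 1.55 in autosome centres and 1.59 in arms. Here too the distant pairs include replicate 2 regions of the combined list. Combined regions numbered 29.7 per Mb in centres and 14.6 in arms, so these 2 ratios are not strictly comparable either. Each autosome had more members per Mb in its centre, with ratios from 1.20 on I (1.04 to 1.39) to 1.47 on V (1.27 to 1.70).

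On X the contrast of centre and arms depended on where the arms end. With the outer 20% as arms there were 63.5 members per Mb in the centre of X and 48.1 in its arms, which gave a ratio of 1.32 (1.16 to 1.51), whereas it was 1.04 (0.880 to 1.23) for combined and 1.07 (0.996 to 1.14) for unmatched regions. The odds of the centre of X were 1.27 times as high for members as for combined regions (1.02 to 1.57) and 1.24 times as high as for unmatched regions (1.07 to 1.44). With the outer 30% as arms the ratio was 1.04 (0.916 to 1.18) for members, 0.968 (0.818 to 1.15) for combined and 0.995 (0.930 to 1.06) for unmatched regions. The odds ratios of members were then 1.07 (0.869 to 1.33) against combined and 1.05 (0.905 to 1.21) against unmatched regions, and both intervals held 1. Members numbered 172 in the end arm and 169 in the start arm (ratio 1.02, 0.818 to 1.27), against 138 and 94 combined regions (odds ratio 0.694, 0.488 to 0.985). Unmatched regions had 710 and 696 there (odds ratio of members against them 0.998, 0.782 to 1.27), so members were balanced between the arms as unmatched regions were, and the uneven arms were those of the combined list. In 10 equal bins of its length, bin 1 of X held 33.3 members per Mb, the lowest on that chromosome, and bin 3 held 74.5, the highest. Unmatched regions too were fewest in bin 1 (175.5 per Mb) and most frequent in bin 3 (229 per Mb). In bin 9 there were 48.5 members per Mb, where the combined list had its highest density on X at 45.7 per Mb. These bins were set with the values known and were not tested.

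**Figure D4:**
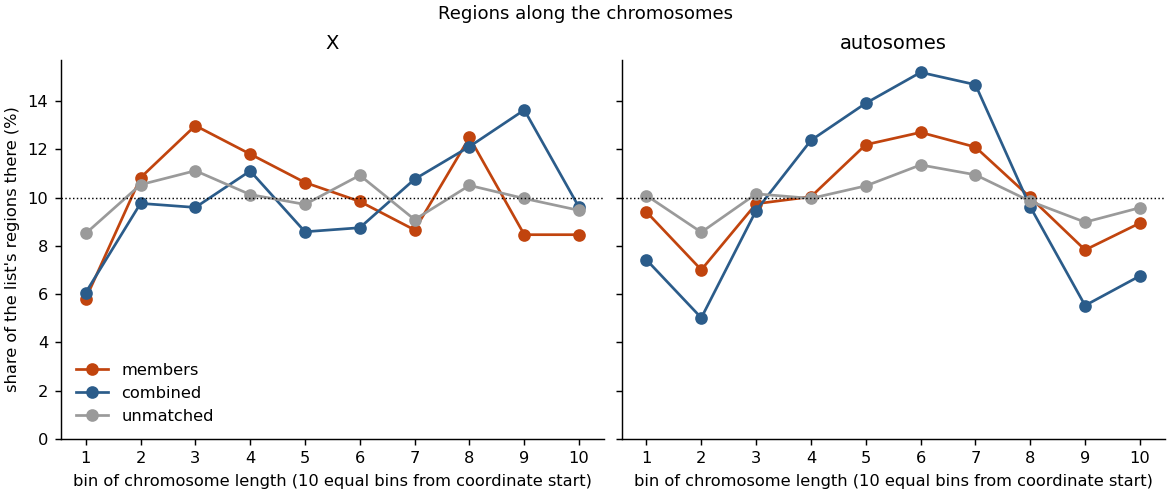
Share of each list's regions (y axis, %) in 10 successive bins of chromosome length (x axis), on X and over the 5 autosomes together, for members, combined and unmatched regions; the dotted line at 10% is an even spread. On autosomes the members' shares in the middle bins lie between the other lists (12.7% in bin 6, against 15.2% combined and 11.4% unmatched), and on X they peak in bin 3 at 13.0%.

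Members lay near combined regions more often than unmatched regions did. A combined midpoint was within 2 kb of 858 members (16.7%, exact interval 15.7 to 17.7) and of 2165 unmatched regions (10.7%, 10.3 to 11.2), an odds ratio of 1.67 (1.53 to 1.82). Both lists are barred from overlapping a combined region, and they differ by whether replicate 2 had a midpoint within 200 bp. The difference was present within X (17.5% and 13.0%, odds ratio 1.42, 1.17 to 1.72), within autosome centres (18.8% and 12.2%, 1.66, 1.48 to 1.86) and within autosome arms (11.8% and 6.86%, 1.82, 1.50 to 2.21). It was also present at 1 kb and at 5 kb, with odds ratios of 1.63 (1.43 to 1.87) and 1.53 (1.43 to 1.64). The median distance to a combined midpoint was 9893 bp for members and 14164 bp for unmatched regions.

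The difference in nearness was present at like ranks too. Within 4 ranges of replicate 1 rank that hold 1285 members each, the odds ratios of members against unmatched regions were 1.34 (1.12 to 1.60), 1.26 (1.05 to 1.50), 1.64 (1.36 to 1.96) and 1.64 (1.36 to 1.95), from best to poorest. For X and the autosome centre the same split left less. On X the odds ratio was 1.20 (1.01 to 1.43) in the best range and between 1.02 and 1.09 in the others, whose intervals all held 1. For autosome centres it was between 1.06 and 1.18, and all 4 intervals held 1. Members rank better than unmatched regions, so the positional differences over the whole lists go together with a difference in rank, and its part in them was not tested further. With only replicate 2 regions outside the combined list counted, at 1 to 2 kb there were 14.9 pairs per 50 bp and 1000 regions for replicate 1 regions within 2 kb of a combined midpoint, 18.6 for those at 2 to 5 kb and 13.3 for those further away. Within 200 bp the same sets had 37.3, 30.7 and 23.9 such pairs, with close-to-distant ratios of 2.50, 1.65 and 1.80. For the first set, 1 to 2 kb includes the combined regions themselves, where such replicate 2 regions are barred. Its distant rate of 14.9 and its ratio of 2.50 are therefore not strictly comparable with the others.

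Seen from the combined list, 775 of 2548 regions (30.4%, 28.6 to 32.2) had a member midpoint within 2 kb, and 1603 (62.9%) had one of the more numerous unmatched regions. The share with a member was 34.3% (30.2 to 38.6) in the first of 5 equal groups by the number in the region name and 30.1% (26.1 to 34.2) in the last, with overlapping intervals. Inside the largest group of combined regions, 12 regions on IV between 9607040 and 9619135, there was 1 member, at 9616520 to 9616895, and 1 unmatched region. Its score was 2.78 in replicate 1 (rank 4344), and its partner was at the highest score of replicate 2 (rank 2504). The next largest group, 8 regions on X, held 0 members and 0 unmatched regions.

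Members of better rank lay more often near combined regions and in autosome centres, and unmatched regions of better replicate 1 rank did so too. In 4 groups of 1285 by the worse rank, from best to poorest, the X-to-autosome ratio was 1.24 (1.08 to 1.42), 1.18 (1.03 to 1.36), 1.10 (0.956 to 1.27) and 1.07 (0.926 to 1.23). The odds ratio of X in the first against the last group was 1.16 (0.949 to 1.41), an interval that held 1. The autosome centre-to-arm ratio was 1.69 (1.47 to 1.95) in the first group, 1.34 and 1.27 in the next, and 1.14 (1.01 to 1.30) in the last. Here the odds ratio of the first against the last group was 1.48 (1.22 to 1.79). Worse rank is tied to the choice of members, so intervals between these groups are a description and not a test. The share near a combined midpoint was 20.9%, 17.6%, 14.6% and 13.6%, with an odds ratio of 1.68 (1.36 to 2.08) between first and last. Over the 4 ranges of replicate 1 rank used above, unmatched regions lay near a combined midpoint in 17.9%, 13.4%, 9.22% and 8.85% of cases, beside 22.6%, 16.3%, 14.2% and 13.7% of members. Of the autosomal regions, 72.8% of members and 69.4% of unmatched regions were in the centre in the best range, and 63.3% and 60.3% in the poorest. The change with rank is thus not particular to members.

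The ends of this series met the other lists to different degrees. This too is a description, since shared pairs with good ranks in both replicates were mostly in the combined list. The first group had lower odds of the autosome centre than the combined list (0.833, 0.700 to 0.992), while its odds ratio for X was 0.875 (0.741 to 1.03). The last group was not separable from unmatched regions in its odds of X (1.04, 0.896 to 1.20) or of the autosome centre (1.02, 0.891 to 1.16), and it was nearer to combined regions (1.31, 1.11 to 1.55). Offsets widened along the groups, with medians of 74, 78, 79 and 88 bp.

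**Figure D5:**
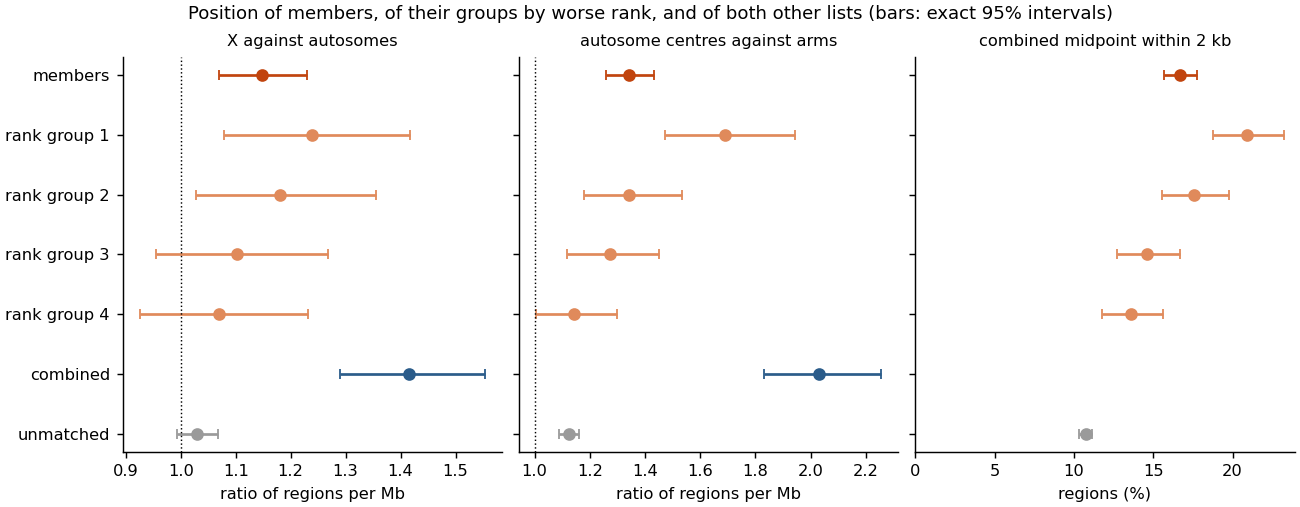
Ratio of regions per Mb on X against autosomes, ratio in autosome centres against arms, and share of regions with a combined midpoint within 2 kb (x axes), for members, for their 4 groups by worse rank, and for combined and unmatched regions; points are values, bars exact 95% intervals, and the dotted line is 1. The groups step from 1.24 to 1.07, from 1.69 to 1.14 and from 20.9% to 13.6%; the third panel has no value for combined regions.

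Members also stood in groups. A neighbouring member midpoint within 2 kb was found for 1715 members (33.4%, 32.1 to 34.7), against 682 combined regions (26.8%, 25.1 to 28.5) and 11770 unmatched regions (58.3%, 57.6 to 59.0) among themselves. The lists differ in size, so these shares were not tested against each other. Neighbours within 2 kb joined, the members made 4178 places, of which 3425 were single regions, 584 pairs, and 169 groups of 3 or more. Part of this grouping is overlap, since 623 members (12.1%) shared bases with another member.

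The largest group held 6 members on X from 3885408 to 3891627, a stretch of 6220 bp with no combined midpoint within 5786 bp of any of its members. Its best member, at 3887269 to 3887644, had ranks 3645 and 2488 and scores of 2.93 and 3.74 in replicates 1 and 2. The members at 3888128, 3890086 and 3891252 had scores of 2.14, 2.18 and 1.03 in replicate 1, and their partners 0.910, 0.661 and 2.15 in replicate 2. The remaining members of the group, at 3885408 and 3890288, scored 0.157 and 0.215 in replicate 1. The group therefore mixed better and poor ranks, and 2 of its members, 202 bp apart, had the same partner. Groups of 5 lay on I at 9870846 to 9875585, on II at 5949345 to 5952570, on III at 4274515 to 4277432 and on X at 13655849 to 13660212.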

How the data were processed

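The authors' deposited files hold called regions of 2 ChIP samples and 1 combined list, placed on WS220 of WormBase, per the file headers. Their source field names SPP and IDR. Aligner, versions, thresholds and the role of the inputs were not stated by labels or files. The authors gave every region a score of unstated meaning, the same for all combined regions, so these were ordered by the number in the region name. Mitochondrial regions were left out.

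Midpoints were floor((start + end)/2), chromosome length the largest coordinate in any list, and overlap at least 1 bp. Ratios of regions per Mb have Clopper-Pearson intervals conditional on the total, and odds ratios are conditional with exact intervals, both at 95%. Alternatives were other matching distances, overlap rules, arm widths, neighbour distances and rank limits. Named regions are the 12 members with the best worse rank, the best on each chromosome, those nearest the 200 bp limit and the largest group; other regions were named with their values known. Members, lists and tests were chosen with earlier results of these data known, and intervals treat regions as independent, which they are not. Motif and gene location, planned, were not run without WS220 sequence and annotation. Matching and intervals were tested on simulated data. Intervals came from scipy 1.17.1, tables from pandas 2.3.3 and numpy 2.4.6, and figures from matplotlib 3.10.9, under Python 3.11.15.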

Additional observations from a re-analysis of the deposited data

How the results depend on the processing

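Of 106 recomputed values, 89 kept their direction and their side of 1 (or, without a test, their range), and none reversed. The number of members was 3131 with midpoints within 100 bp and 1943 with both ranks better than the median of their lists, against 5140. Larger counts, 6719 within 300 bp and 7681 with any overlap, fell inside the range allowed for counts and were scored as kept. The odds of X against unmatched regions lost their call at 100 bp and with the better ranks, at 1.10 (interval 0.996 to 1.21) and 1.12 (0.990 to 1.27). The X-to-autosome ratio lost it in the third and the fourth of 4 groups by worse rank, added after seeing the data (1.10 and 1.07), and the centre-to-arm ratio of X with the outer 30% as arms (1.04), where the odds of the centre of X, added after seeing the data, also lost their calls against combined (1.07) and unmatched regions (1.05). The 100 bp limit, the better ranks and the rank groups hold fewer regions by construction, and the cause was not tested further. The share with a neighbouring member, 33.4% as reported, was 19.2% at 100 bp, 41.8% at 300 bp, 46.2% with any overlap, 26.5% with mutual nearest midpoints, 31.7% without regions within 1000 bp of a combined midpoint, 19.0% with the better ranks, 23.6% with neighbours within 500 bp counted once, and 21.0% and 55.4% for 1 and 5 kb. The rank correlation was 0.0299 with the better ranks, against 0.172. The X share against combined regions, the autosome centre ratio and nearness to combined regions kept their calls among the 106 values, replicate 2 regions as members (5099) included. Rank groups were not among these settings for the X share against combined regions. In the first group by worse rank its odds ratio was 0.875 (0.741 to 1.03), an interval that held 1. Alternatives for motif windows and promoter windows were not run. No replicate could be left out, since the rule needs both. No paired analysis was possible because the only labelled groups are ChIP and input, and region lists of the inputs were not analysed here. With depth unknown, an unmatched region cannot be called unbound in replicate 2.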

Other observations

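The regions named here were picked with their values known. Several members were strong in 1 replicate only. The member on V at 15190917 to 15191292 had rank 1174 and the highest score in replicate 1, while its partner had rank 21886 and a score of 0.225 in replicate 2. In the other direction, the member on I at 5812691 to 5813066 had rank 14355 and a score of 0.401 in replicate 1, and its partner had rank 229 and the highest score in replicate 2. Another, on II at 9170889 to 9171264, had ranks 10130 and 624. The highest score was reached by 137 members (2.67%) in replicate 1 and by the partners of 427 (8.31%) in replicate 2, and in both by 9. Of all nuclear regions, 8.81% reached it in replicate 1 and 10.3% in replicate 2, so members reached it less often. A combined midpoint lay 1381, 755 and 574 bp from the 3 members named above. For a further member on V, at 5839144 to 5839519 (ranks 1379 and 11444), it lay 5192 bp away.

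A combined midpoint within 2 kb was found for 7 of the best 12, 34 of the best 100 and 123 of the best 500 members by worse rank (24.6%, exact interval 20.9 to 28.6), against 858 of all 5140. Among unmatched regions it was found for 17.9% in the best and 8.85% in the poorest of 4 ranges of replicate 1 rank, so nearness went with rank there too.

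The mitochondrial lists of 25 and 27 entries, outside the rule, held 1 replicate 1 entry with a replicate 2 midpoint within 200 bp.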
